A study of Homo sapiens with 12 samples.

Results

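RNA levels of 8 genes of the replication fork were followed in HCT116 TIM-mAID cells that received the auxin analogue 5-Ph-IAA, the inhibitor ATRi, both compounds, or DMSO only. The genes are those of the fork protection complex and its neighbours (TIMELESS, TIPIN, CLSPN and WDHD1), those of the fork remodelling enzymes (ZRANB3, SMARCAL1 and HLTF), and the helicase gene PIF1. They were taken by gene name from a deposited table of 62700 genes, and all 8 are among the 18049 genes that passed the count filter. Every member had at least 53 counts in every library, so none passed the filter through 1 group alone. They were chosen by name, but also selected on measured values, since the changes of TIMELESS, TIPIN and PIF1 with both compounds against DMSO were known when the list was drawn up. Values of that comparison are therefore given for all 8 members as a description, without p-values.

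HCT116 is a human colorectal carcinoma line. In all 12 libraries the cells were HCT116 TIM-mAID, whose genotype is labelled WT with a CRISPR knock-in (KI) of mAID, a degron tag carried here by the TIMELESS (TIM) protein. The 4 groups of 3 libraries, all at 40 h, were DMSO (labelled 1 µM DMSO), 5-Ph-IAA at 1 µM, the ATR kinase inhibitor ceralasertib (ATRi) at 1 µM, and 5-Ph-IAA/ATRi, named the combination below. 5-Ph-IAA directs a tagged protein to degradation. Each group holds sets 1 to 3, described by the submitters as biological replicates, and whether the line is a single clone is not given in the sources used here. No untagged line and no protein measurement was analysed here, and an mRNA level does not show whether the tagged TIMELESS protein was degraded.

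At a replication fork, TIMELESS and TIPIN form a heterodimer that travels with the replicative helicase and couples it to the polymerases. CLSPN (claspin) joins this complex and carries the signal from the kinase ATR to CHK1, and WDHD1 (AND-1) links the helicase to DNA polymerase alpha. ZRANB3, SMARCAL1 and HLTF are SNF2-family translocases that can turn a stalled fork back into a 4-way structure, while PIF1 is a helicase that unwinds G-quadruplexes and acts in break-induced DNA synthesis. Many genes of fork proteins are transcribed mainly in cycling cells, under E2F factors around the G1/S transition or through CHR and CCAAT elements in G2/M.

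Promoter sequences are shown for the member with the largest difference, PIF1, for 2 members of the fork complex that differed, TIMELESS and CLSPN, and for their partner TIPIN, which differed least. They are RefSeq windows of the GRCh38.p14 build, from 250 bases before to 50 after the annotated start, each on the gene's own strand from 5′ to 3′, and RefSeq held a window for all 8 members. Capitals mark matches to 3 motifs searched on both strands. The E2F-like motif was the run of letters TTCGCGC, or else its close relatives, which are spelled TTGGCGC in one form, as TTCCCGC in another form, and as TTGCCGC in the last form. The CHR was TTTGAA or, in its other form, the letters TTCGAA, and the CCAAT box was its own 5 letters, read from the opposite strand as ATTGG. The window of PIF1 lies at chr15:64825598-64825897 on the minus strand, inside the gene's annotated span, that of TIMELESS at chr12:56449377-56449676 on the minus strand, that of CLSPN at chr1:35769929-35770228 on the minus strand, and that of TIPIN, the first of 2, at chr15:66386668-66386967 on the minus strand.
PIF1: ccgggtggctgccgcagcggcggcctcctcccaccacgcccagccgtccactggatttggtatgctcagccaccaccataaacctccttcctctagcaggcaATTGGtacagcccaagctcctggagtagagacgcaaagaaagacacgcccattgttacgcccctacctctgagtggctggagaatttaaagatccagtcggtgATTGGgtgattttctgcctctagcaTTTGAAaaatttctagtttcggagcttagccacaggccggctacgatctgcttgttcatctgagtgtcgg
TIMELESS: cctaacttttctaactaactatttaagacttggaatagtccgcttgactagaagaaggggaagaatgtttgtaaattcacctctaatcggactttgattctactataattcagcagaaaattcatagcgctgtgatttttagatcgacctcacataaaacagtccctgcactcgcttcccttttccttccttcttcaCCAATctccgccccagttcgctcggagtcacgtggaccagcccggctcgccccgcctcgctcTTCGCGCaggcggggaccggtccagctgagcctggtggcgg
CLSPN: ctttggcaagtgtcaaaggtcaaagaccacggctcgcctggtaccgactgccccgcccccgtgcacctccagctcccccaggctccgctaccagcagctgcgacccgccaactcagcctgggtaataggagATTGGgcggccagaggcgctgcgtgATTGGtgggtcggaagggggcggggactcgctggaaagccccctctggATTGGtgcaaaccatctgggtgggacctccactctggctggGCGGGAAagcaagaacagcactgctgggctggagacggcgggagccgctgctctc
TIPIN: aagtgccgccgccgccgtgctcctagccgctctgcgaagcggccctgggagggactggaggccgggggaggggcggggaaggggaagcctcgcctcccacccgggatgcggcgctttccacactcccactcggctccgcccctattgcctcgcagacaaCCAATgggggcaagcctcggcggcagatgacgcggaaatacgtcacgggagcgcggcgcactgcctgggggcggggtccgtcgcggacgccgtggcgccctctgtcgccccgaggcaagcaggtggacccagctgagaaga
Counted from the start, the CHR match of PIF1 begins at base -20 and its CCAAT matches at -45 and -148, with no E2F-like match in the window. TIMELESS has an E2F-like match at base 9 and a CCAAT match at -53. CLSPN has an E2F-like match at -5 and 3 CCAAT matches at -119, -94 and -46. The first TIPIN window holds a CCAAT match only, while its second holds 2 overlapping E2F-like matches on opposite strands. Among the other members, WDHD1 and HLTF have an E2F-like match, HLTF and 2 overlapping windows of ZRANB3 a CHR match, and SMARCAL1 neither. Of 35116 promoters of the same length, 13.0% hold the E2F-like motif, 16.4% the CHR and 34.6% a CCAAT box. A match describes the letters in the window and was not tested as a binding site.

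Sequencing depth was even, with 27.7 to 34.7 M counts per library. The mitochondrial share of counts was not, running from 6.63 to 14.9% and spreading within groups, and it is given beside the results it moved with. Of 11 colorectal epithelial markers 7 passed the count filter. Marker levels are CPM, counts scaled to a common library size, here without the TMM factors described below. Summed over all 11, the level was 4439 to 6054 CPM in DMSO and 4861 to 6425 in 5-Ph-IAA. It was 5855 to 6294 in ATRi and 9899 to 11326 in the combination. KRT8, KRT18 and KRT19 led that sum and rose in the combination, 3 of 7 with 0 that fell, EPCAM stood at 329 to 521 CPM, and CEACAM5, CDX1 and LGR5 had at most 4 counts in any library. Of 11 markers of other cell types 4 passed the filter. The sums over all 11 were 46.3 to 110.5 CPM in DMSO and 80.6 to 99.6 in the combination. COL1A1 stood at 36.2 to 100.3 CPM and CD68 at 6.78 to 36.4 over the libraries. PTPRC, CD3E, DCN, PECAM1 and HBB had at most 6 counts. Of the 4, CD68 alone rose (1.94 ± 0.30 on the log2 scale, edgeR adjusted p = 0.00178). The part of these markers in the fork gene differences was not tested.

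The member levels below are CPM scaled by trimmed mean of M-values (TMM) factors, in the order of sets 1, 2 and 3, with means ± SD over n = 3 libraries. Changes are log2 fold changes ± standard error from edgeR's quasi-likelihood fit of all 18049 genes, and a gene passed the test at a Benjamini-Hochberg adjusted p under 0.05 over all of them. To compare genes with each other, the CPM was divided by the length of the longest coding transcript in kilobases. On that length-scaled measure HLTF was the most abundant member in DMSO, at 26.0 ± 5.90 CPM per kb. TIMELESS (9.80 ± 3.66), TIPIN (9.52 ± 2.57), SMARCAL1 (8.64 ± 0.717), CLSPN (7.98 ± 3.20), PIF1 (7.17 ± 0.273) and WDHD1 (6.49 ± 4.21) followed, and in each pair of neighbours in that order the means ± SD overlapped. ZRANB3 was lowest at 1.64 ± 0.387 CPM per kb. In the combination HLTF still led at 16.1 ± 1.67 CPM per kb, followed by TIPIN at 8.10 ± 0.301, SMARCAL1 at 6.49 ± 0.827, TIMELESS at 4.34 ± 0.774, CLSPN at 2.54 ± 0.335 and WDHD1 at 2.05 ± 0.424. PIF1 had moved next to the bottom of the order at 0.739 ± 0.0213 CPM per kb, above ZRANB3 at 0.533 ± 0.0547. Of the neighbours in the combination order, CLSPN and WDHD1 were the pair whose means ± SD overlapped.

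**Figure D1:**
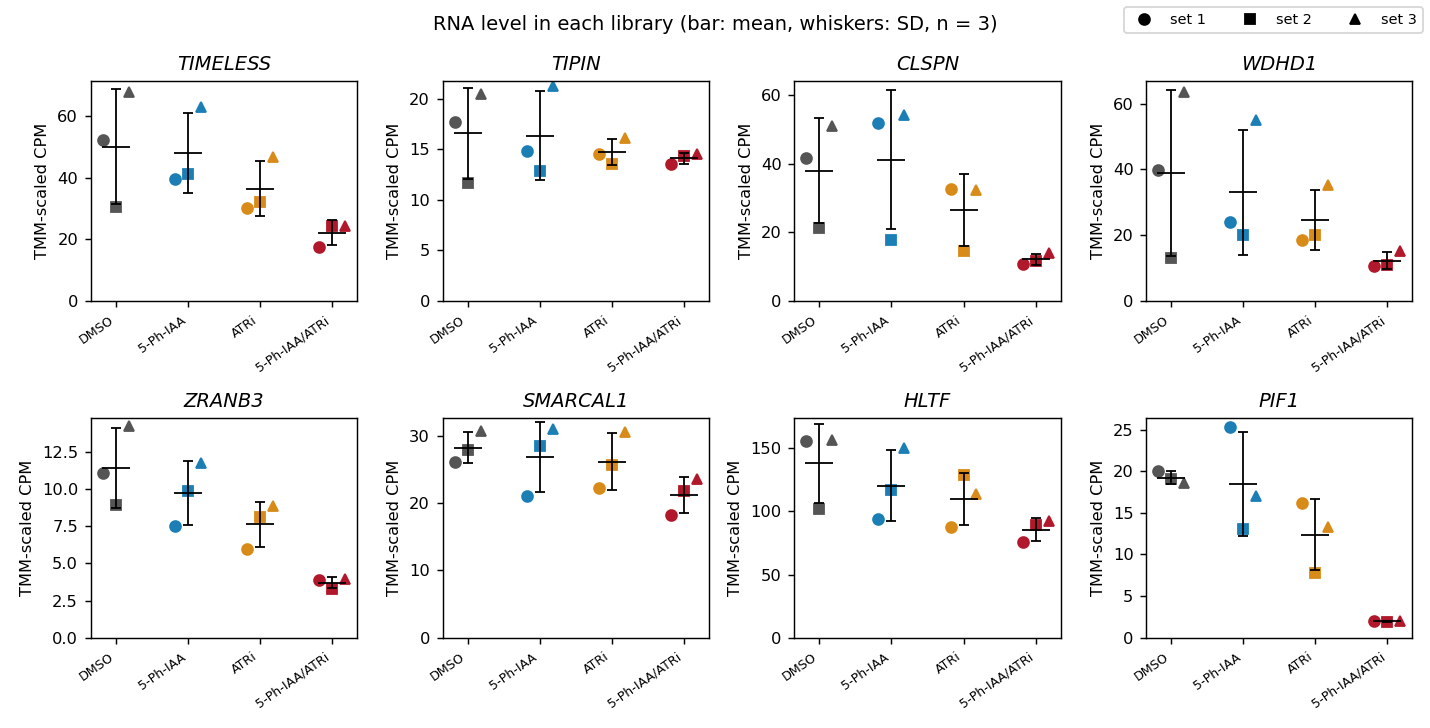
TMM-scaled CPM of the 8 genes in each of the 12 libraries, 1 panel per gene, with marker shapes for sets, a bar for the mean and whiskers for the SD (n = 3). PIF1 drops from 18.7 to 20.1 CPM in DMSO to 1.93 to 2.04 in the combination, while the TIPIN groups overlap.

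With the combination, RNA of the fork genes was lower than with DMSO across the list, most in PIF1, by about the same amount in CLSPN, WDHD1 and ZRANB3, and hardly in TIPIN. As a description of the list and not as a test of it, 4 of 8 members, TIMELESS, CLSPN, ZRANB3 and PIF1, lay past the threshold of the fit and lower, as did 6.89% of all tested genes. In 6 of 8 members every combination library lay below every DMSO library, where 15.9% of all tested genes did so. The median change of the 8 was -1.40 on the log2 scale, against -0.02 over all genes. Without DMSO set 1, DMSO set 3 or any 1 combination library 2 of 8 passed, ZRANB3 and PIF1, and without DMSO set 2 there were 6. These counts come from the comparison known when the list was drawn, and nothing is read from them.

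TIMELESS (ENSG00000111602.12, chr12:56416363-56449426 on the minus strand), the degron-tagged subunit, stood at 52.2, 30.5 and 67.9 CPM in DMSO, 39.5, 41.4 and 63.0 in 5-Ph-IAA, 30.3, 32.3 and 46.9 in ATRi, and 17.6, 24.5 and 24.5 in the combination. All 3 combination libraries lay below every other library, and the other groups overlapped. Against DMSO the change was -0.07 ± 0.29 for 5-Ph-IAA, -0.46 ± 0.29 for ATRi and -1.18 ± 0.30 for the combination. Against 5-Ph-IAA the combination changed by -1.11 ± 0.30, with an edgeR adjusted p of 0.0377. The difference from ATRi was -0.72 ± 0.29, which did not pass the test (edgeR adjusted p = 0.240). It passed in only 1 of 14 alternative fits, that with the mitochondrial share of counts as a covariate (-0.51 ± 0.12, edgeR adjusted p = 0.0110).

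TIPIN (ENSG00000075131.10, chr15:66336191-66386717, minus strand), the obligate partner of TIMELESS, gave 17.7, 11.7 and 20.4 CPM in DMSO, 14.9, 12.9 and 21.3 in 5-Ph-IAA, 14.5, 13.6 and 16.2 in ATRi, and 13.5, 14.3 and 14.5 in the combination. The 4 groups overlapped, and DMSO set 2 was the lowest of the 12 libraries. The combination differed from DMSO by -0.23 ± 0.22, from 5-Ph-IAA by -0.21 ± 0.22 (edgeR adjusted p = 0.643) and from ATRi by -0.06 ± 0.22. The estimated counts of TIPIN were not whole in 10 of 12 libraries, as they are where reads are divided between genes, and its exons overlap the pseudogene RPL9P25 on the same strand.

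The RNA ratio of the 2 subunits was lower in the combination, while the other groups overlapped. The changes of both genes in the combination against DMSO were known when the list was drawn up. The ratio is therefore a description only. Within each library, log2 of TIMELESS over TIPIN in CPM was 1.56 ± 0.172 in DMSO, 1.55 ± 0.139 in 5-Ph-IAA, 1.28 ± 0.239 in ATRi and 0.638 ± 0.221 in the combination (SD, n = 3). The combination libraries, at 0.383 to 0.777, lay below the other 9, the lowest of which stood at 1.06.

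CLSPN (ENSG00000092853.14, chr1:35720213-35769978, minus strand), the mediator between ATR and CHK1, was at 41.8, 21.3 and 51.1 CPM in DMSO, 51.9, 17.8 and 54.2 in 5-Ph-IAA, 32.8, 14.4 and 32.5 in ATRi, and 10.9, 11.6 and 13.9 in the combination. Set 2 was the low library of DMSO, 5-Ph-IAA and ATRi, and all 3 combination libraries lay below every other library. The combination differed from DMSO by -1.65 ± 0.45, changed against 5-Ph-IAA by -1.77 ± 0.45 (edgeR adjusted p = 0.0317) and differed from ATRi by -1.13 ± 0.45 (edgeR adjusted p = 0.217).

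WDHD1 (ENSG00000198554.12, chr14:54938949-55027099, minus strand), the AND-1 gene, had the widest relative spread of the 8 members in DMSO, with 39.9, 13.2 and 63.6 CPM. It gave 24.0, 20.2 and 54.9 CPM in 5-Ph-IAA, 18.5, 20.2 and 35.3 in ATRi, and 10.6, 10.97 and 15.2 in the combination. The combination overlapped DMSO through DMSO set 2 alone and lay below all 5-Ph-IAA and ATRi libraries. Its difference was -1.67 ± 0.53 against DMSO. Against 5-Ph-IAA (-1.43 ± 0.52, edgeR adjusted p = 0.122) and ATRi (-1.01 ± 0.52, edgeR adjusted p = 0.378) it did not pass the test. Against 5-Ph-IAA it passed in 4 of 14 alternative fits, among them DESeq2 (adjusted p = 0.0396) and the mitochondrial covariate (-0.92 ± 0.23, edgeR adjusted p = 0.0112). Against DMSO, as a description only, it was not past the threshold of the fit and was past it in 6 of 14 alternatives.

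Of the 3 remodellers, ZRANB3 (ENSG00000121988.18, chr2:135196969-135531218, minus strand) differed most. This translocase, which binds polyubiquitinated PCNA, stood at 11.1, 8.92 and 14.3 CPM in DMSO, 7.52, 9.90 and 11.8 in 5-Ph-IAA, 5.94, 8.13 and 8.86 in ATRi, and 3.86, 3.27 and 3.98 in the combination. Every combination library was below every other library, and every ATRi library was below every DMSO library. The combination differed from DMSO by -1.62 ± 0.23 and changed by -1.39 ± 0.23 against 5-Ph-IAA (edgeR adjusted p = 0.00447) and by -1.04 ± 0.23 against ATRi (edgeR adjusted p = 0.0340). Exons of ZRANB3 overlap those of RAB3GAP1 on the opposite strand, which averaged 87.2 CPM. The strand setting of the authors' counting is not given in the sources used here, so reads of the overlap may have gone to either gene.

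SMARCAL1 (ENSG00000138375.14, chr2:216412484-216483053, plus strand), the translocase that binds the single-strand protein RPA, gave 26.1, 27.9 and 30.8 CPM in DMSO, 21.0, 28.5 and 31.0 in 5-Ph-IAA, 22.2, 25.7 and 30.6 in ATRi, and 18.3, 21.9 and 23.5 in the combination. The combination lay below DMSO in every library and overlapped the other groups. Its difference was -0.41 ± 0.17 against DMSO, -0.34 ± 0.17 against 5-Ph-IAA (edgeR adjusted p = 0.280) and -0.30 ± 0.17 against ATRi (edgeR adjusted p = 0.442).

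HLTF (ENSG00000071794.16, chr3:149030063-149086533, minus strand), which is also a ubiquitin ligase for PCNA, gave 155.7, 101.8 and 156.6 CPM in DMSO, 94.2, 116.8 and 149.8 in 5-Ph-IAA, 87.9, 128.5 and 113.9 in ATRi, and 75.5, 89.2 and 92.1 in the combination. The combination lay below all DMSO and 5-Ph-IAA libraries and overlapped ATRi. It differed from DMSO by -0.69 ± 0.22, from 5-Ph-IAA by -0.49 ± 0.22 (edgeR adjusted p = 0.205) and from ATRi by -0.36 ± 0.22 (edgeR adjusted p = 0.461).

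PIF1 (ENSG00000140451.13, chr15:64815632-64827062, minus strand) was even in DMSO at 20.1, 19.04 and 18.7 CPM and spread out with 5-Ph-IAA at 25.3, 13.0 and 17.0. With ATRi it stood at 16.1, 7.73 and 13.3 CPM, and with the combination at 2.04, 1.93 and 1.99. The 3 combination libraries lay far below the other 9, and the ATRi libraries lay below all DMSO libraries. The combination was 9.69-fold lower than DMSO, a log2 change of -3.28 ± 0.30 and the 26th lowest of 18049 genes. That change was known when the list was drawn up, so its rank is a description only. The log2 change of PIF1 in the combination was -3.21 ± 0.30 against 5-Ph-IAA (edgeR adjusted p = 0.000175) and -2.64 ± 0.30 against ATRi (edgeR adjusted p = 0.00124).

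**Figure D2:**
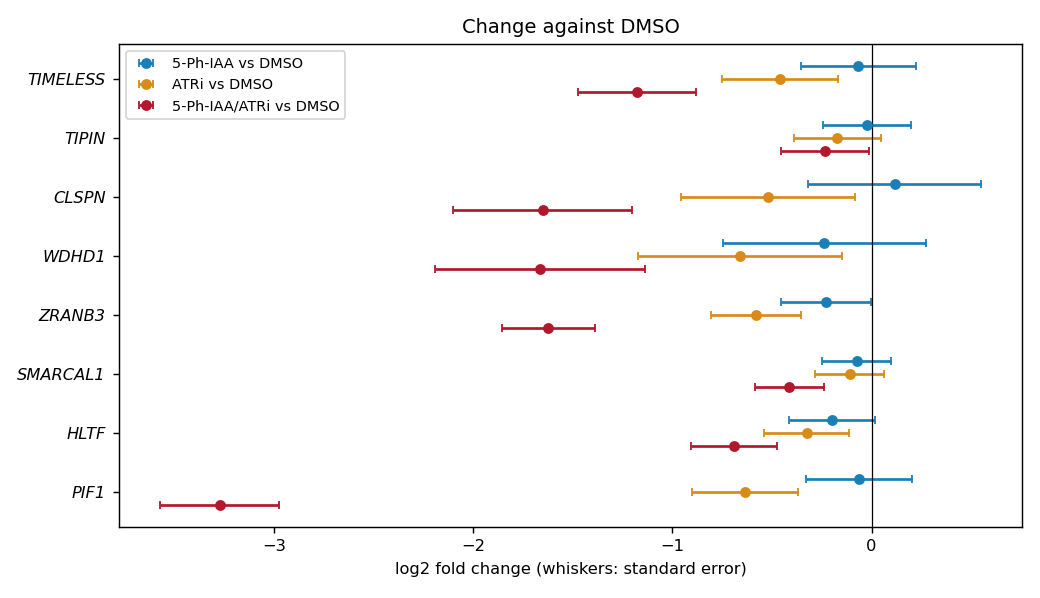
Log2 fold change of each gene against DMSO (points) with its standard error (whiskers) for 5-Ph-IAA, ATRi and the combination. The 5-Ph-IAA points lie between -0.24 and 0.12, and the combination point is the lowest of the 3 in every gene.

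Counted over the list, 4 of 8 members fell in the combination against 5-Ph-IAA (TIMELESS, CLSPN, ZRANB3 and PIF1), where 5.04% of all tested genes fell. Without 5-Ph-IAA set 1 (TIMELESS) or set 2 (CLSPN) 3 of 8 fell, and without set 3 or any 1 combination library 2 of 8, ZRANB3 and PIF1. Against ATRi 2 of 8 fell (ZRANB3 and PIF1), where 1.88% of all tested genes fell, and without ATRi set 2, ATRi set 3 or any 1 combination library PIF1 alone did. The median change of the 8 was -1.25 against 5-Ph-IAA and -0.86 against ATRi on the log2 scale, with medians over all genes of -0.01 and -0.005. These comparisons share the combination libraries with each other and with the comparison from which results were known.

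Neither compound alone took a member past the test, though many single libraries lay outside the DMSO range of their gene. With 5-Ph-IAA all libraries did so for PIF1 and CLSPN, on both sides of the range. With ATRi all did so for PIF1 and ZRANB3, below the range. With 5-Ph-IAA 0 of 8 members passed the test, where 0.00554% of all tested genes did, and 0 of 8 had every library below DMSO, where 1.38% of all tested genes did. The log2 differences ran from -0.24 to 0.12, every edgeR adjusted p was 1, and 0 members passed with DESeq2. An unadjusted p under 0.05 was found for 0 of 8 members and for 239 of 18049 tested genes. With ATRi 0 of 8 passed, where 0.0665% of all tested genes did, although all 8 differences were negative, with a median of -0.49 against -0.02 over all genes. ZRANB3 (-0.58 ± 0.23, edgeR adjusted p = 0.901) and PIF1 (-0.64 ± 0.27, edgeR adjusted p = 0.954) were the 2 members whose ATRi libraries all lay below DMSO, where 4.06% of all tested genes did so. They were also the 2 with an unadjusted p under 0.05, where 877 of 18049 tested genes had one. With DESeq2 0 members passed. ATRi and 5-Ph-IAA were not told apart in any member, with differences of -0.64 to -0.04 and an edgeR adjusted p of 1 throughout, and 0.0% of all genes passed there, with 427 genes at an unadjusted p under 0.05 and 25 called by DESeq2.

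The combination was also set against the sum of the 2 single changes, as an interaction on the log2 scale, which passed the test in 1 of 8 members, where 0.0776% of all tested genes passed. For PIF1 the single changes summed to -0.70 and the combination gave -3.28, an interaction of -2.58 ± 0.39. For CLSPN the interaction was -1.25 ± 0.62 (edgeR adjusted p = 0.758), for ZRANB3 -0.81 ± 0.32 (edgeR adjusted p = 0.607), and for TIMELESS -0.65 ± 0.41 (edgeR adjusted p = 0.887). WDHD1, SMARCAL1, HLTF and TIPIN lay between -0.77 and -0.04. The interaction of PIF1 passed the test in 7 of 19 alternative fits.

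Within groups, most members were high where the mitochondrial share was low. The share was 7.85, 14.9 and 6.63% in DMSO, 13.6, 10.0 and 6.79% in 5-Ph-IAA, 13.4, 11.1 and 7.40% in ATRi, and 13.9, 12.03 and 10.7% in the combination, so that the groups overlapped. TIPIN, WDHD1, ZRANB3 and SMARCAL1 had their highest level in the library of lowest share in 4 of 4 groups, TIMELESS, CLSPN and HLTF in 3 of 4, and PIF1 in 0 of 4. This order was not counted over all tested genes, so it is a description and not a trait particular to the members. Within DMSO the highest library exceeded the lowest 4.82-fold for WDHD1, 2.40-fold for CLSPN, 2.22-fold for TIMELESS, 1.75-fold for TIPIN and 1.08-fold for PIF1. With the share as a covariate, the change in the combination against DMSO was -0.94 ± 0.24 for WDHD1 and -0.03 ± 0.15 for TIPIN. It was -0.83 ± 0.12 for TIMELESS, -1.42 ± 0.42 for CLSPN, -1.41 ± 0.15 for ZRANB3, -0.31 ± 0.13 for SMARCAL1, -0.48 ± 0.12 for HLTF and -3.36 ± 0.29 for PIF1. PIF1 was thus as low with the covariate as without it, and WDHD1 moved most in log2 units.

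**Figure D3:**
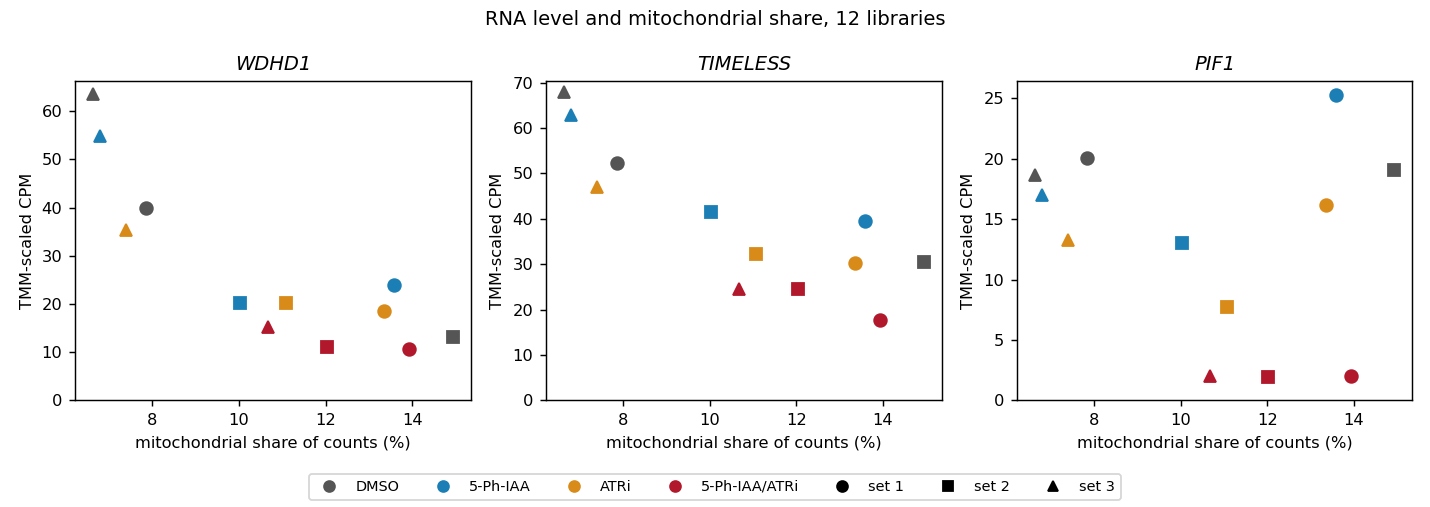
TMM-scaled CPM of WDHD1, TIMELESS and PIF1 (vertical axes) against the mitochondrial share of counts in percent (horizontal axes) in 12 libraries, with colours for groups and shapes for sets. WDHD1 and TIMELESS are highest in the libraries with shares of 6.63 and 6.79%, while PIF1 is near 2 CPM in the combination at every share.

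The members were then placed among related genes, with values for the combination against DMSO on the log2 scale. Over all tested genes 6.89% fell and the median was -0.02, and each list's count and median stand beside these as a description. Of 26 partners of the complex in the replisome 13 fell and 0 rose, with a median of -1.34. CDC45, a core part of the replicative helicase, averaged 20.8 CPM in DMSO and 4.29 in the combination (-2.28 ± 0.42, edgeR adjusted p = 0.00486). POLE, the catalytic subunit of the leading-strand polymerase, changed by -1.70 ± 0.31 (edgeR adjusted p = 0.00491), and DDX11, a helicase that binds TIMELESS, by -1.40 ± 0.26 (edgeR adjusted p = 0.00535).

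Genes of fork reversal differed less as a list. Of 19 such genes 6 fell and 0 rose, with a median of -0.51. BLM and WRN, both RecQ helicases, changed by -2.10 ± 0.35 (edgeR adjusted p = 0.00281) and -0.71 ± 0.13 (edgeR adjusted p = 0.00419), and PRIMPOL, the repriming primase, by -0.88 ± 0.19 (edgeR adjusted p = 0.0122). Of 16 genes for the protection of reversed forks or fork nucleases 9 fell and 0 rose, with a median of -1.34. The nuclease partner EME1 (-2.26 ± 0.35, edgeR adjusted p = 0.00182) and the Fanconi anaemia genes FANCA (-2.01 ± 0.32, edgeR adjusted p = 0.0022) and FANCI (-2.07 ± 0.34, edgeR adjusted p = 0.00252) had the smallest p.

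Of 7 other helicases with the polarity of PIF1 or an action on G-quadruplexes 3 fell and 0 rose, with a median of -0.46. These were DDX11, BRIP1 (-2.52 ± 0.48, edgeR adjusted p = 0.00604) and the helicase-nuclease DNA2 (-1.14 ± 0.34, edgeR adjusted p = 0.0482), beside -3.28 ± 0.30 for PIF1. Of 17 partners and turnover factors of CLSPN 3 fell and 0 rose, with a median of -0.17. They were the replication kinase genes DBF4 (-1.15 ± 0.20, edgeR adjusted p = 0.00329) and CDC7 (-1.25 ± 0.31, edgeR adjusted p = 0.0216) and the mitotic kinase gene PLK1 (-1.92 ± 0.46, edgeR adjusted p = 0.0180). ATR itself, the target of ATRi, gave -0.13 ± 0.11 (edgeR adjusted p = 0.529).

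Cell cycle genes gave the wider frame. Of 14 G1/S genes 6 fell and 0 rose, with a median of -1.27. CDT1 (-1.95 ± 0.37, edgeR adjusted p = 0.00572), DTL (-2.43 ± 0.47, edgeR adjusted p = 0.00600) and RRM2 (-2.53 ± 0.50, edgeR adjusted p = 0.00730) had the smallest p. Of 18 G2/M genes 18 fell, from -3.06 to -1.56 with a median of -2.32, led by CDC25C (-3.06 ± 0.16, edgeR adjusted p = 2.65e-06), CENPA (-2.51 ± 0.17, edgeR adjusted p = 1.24e-05) and NUF2 (-2.68 ± 0.22, edgeR adjusted p = 4.43e-05). Of 13 measured p53 target genes 13 rose, with a median of 1.995, among them CDKN1A (3.24 ± 0.19, edgeR adjusted p = 6.23e-06), FDXR and PHLDA3. The PIF1 difference lay below that of CDC25C by less than its own standard error, and in bulk RNA fewer cycling cells and less RNA per cell cannot be told apart.

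**Figure D4:**
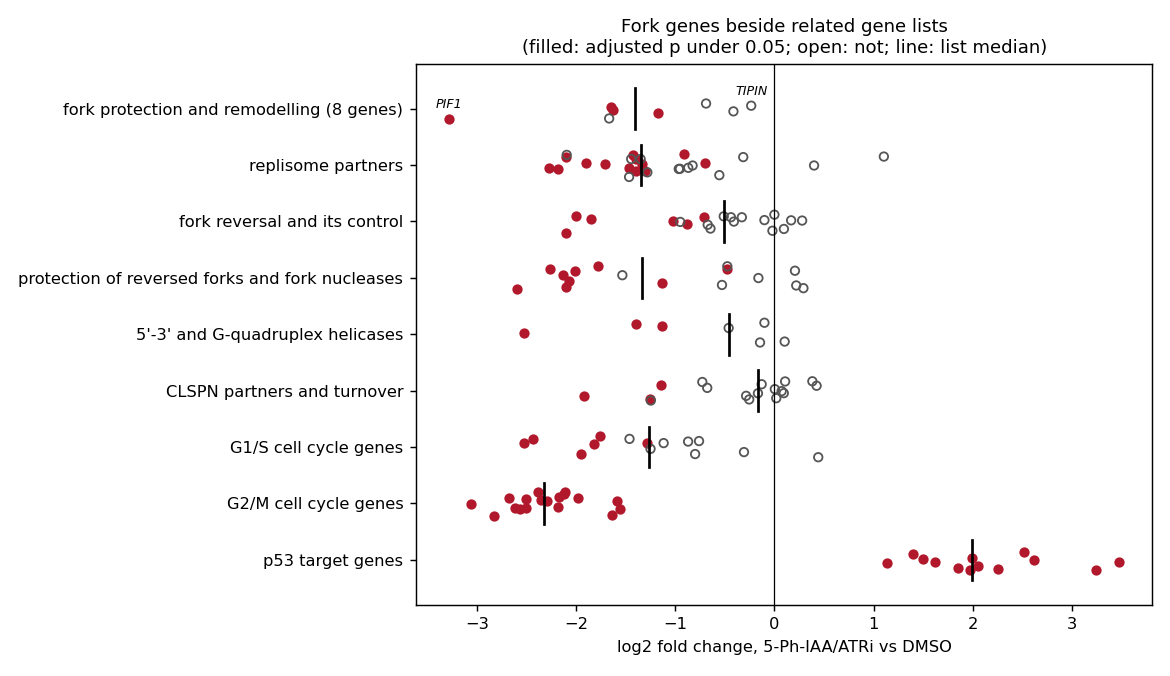
Log2 fold change in the combination against DMSO (horizontal axis) of the 8 fork genes and the genes of 8 related lists (rows), filled where the edgeR adjusted p is under 0.05, with a line at each list's median. The medians run from -2.32 in the G2/M list to 1.995 in the p53 list, and PIF1 at -3.28 is the lowest point drawn. For the 8 fork genes the filling is a description and not a test, since results of this comparison were known when the list was drawn up.

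Within each library, TIMELESS was level with the G1/S genes. Its log2(CPM + 1) less the mean of the 14 G1/S genes was -0.05 ± 0.249 in DMSO, -0.06 ± 0.307 in 5-Ph-IAA, -0.08 ± 0.146 in ATRi and -0.04 ± 0.247 in the combination (SD, n = 3), and the 4 groups overlapped. TIMELESS less the mean of the 18 G2/M genes was -0.83 ± 0.0907 in DMSO and 0.22 ± 0.212 in the combination, whose libraries lay above all others. TIPIN less the G1/S mean was at -1.55 ± 0.424 in DMSO and -0.649 ± 0.129 in the combination, where every library lay above every DMSO library. PIF1 less the mean of the 18 G2/M genes was -2.09 ± 0.490 in DMSO, -2.26 ± 0.541 in 5-Ph-IAA, -2.19 ± 0.366 in ATRi and -2.72 ± 0.164 in the combination. The combination libraries, at -2.90 to -2.59, overlapped those of 5-Ph-IAA and lay below those of DMSO and ATRi. PIF1 averaged 1.98 CPM in the combination, where the added 1 makes its fall smaller than on the fold change scale. Genes of higher level are less affected.

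**Figure D5:**
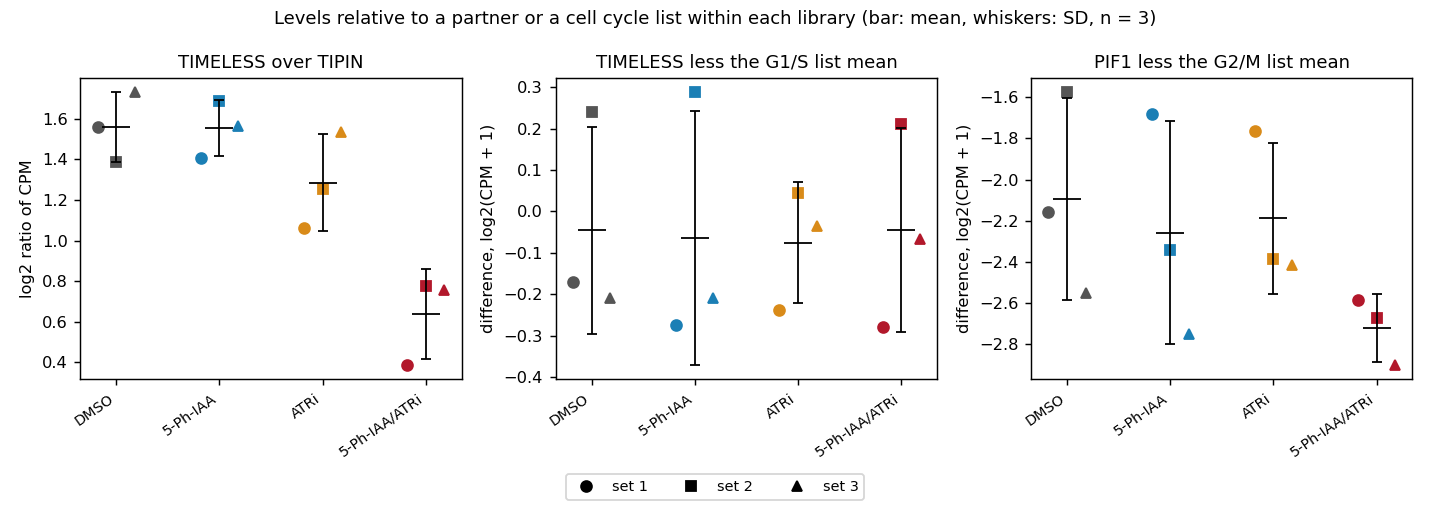
Within-library values of TIMELESS over TIPIN, TIMELESS less the G1/S mean and PIF1 less the G2/M mean (vertical axes, log2 units) in 4 groups, with shapes for sets, bars for means and whiskers for SD (n = 3). TIMELESS over TIPIN is 0.383 to 0.777 in the combination and at least 1.06 elsewhere, while TIMELESS less the G1/S mean overlaps in all groups. The panels are a description, since the changes of TIMELESS, TIPIN and PIF1 against DMSO were known when the list was drawn up.

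The genes whose profile was most like each member's were found by Pearson's r of log2(CPM + 1) over the 12 libraries, among genes with a mean of at least 5 CPM. The libraries share their group differences and their mitochondrial shares, so r describes the profile only. PIF1 was most like AURKB (r = 0.995), CDCA3 (0.993) and HMGB2 (0.992), genes with high RNA in G2/M. WDHD1 was most like NCAPD3 (0.995), CHEK1 (0.994) and SMC2 (0.994). TIMELESS was most like TPX2 (0.985), which is in the G2/M list, PRC1 (0.983) and KIF4A (0.980). CLSPN paired with RMI2 (0.975), MTFR2 (0.971) and TACC3 (0.971). ZRANB3 was nearest to the repair gene DCLRE1A (0.984), then SRGAP2B (0.983), whose near-identical paralogs make its counts uncertain, and ETV1 (0.978). HLTF was nearest to TMEM209 (0.983), ANKRD28 (0.976) and XRCC4 (0.965), SMARCAL1 to PTPA (0.971), CDK16 (0.966) and SLC24A1 (0.964), and TIPIN to VKORC1L1 (0.973), TTF2 (0.970) and NUP43 (0.970). Among the members, TIMELESS and WDHD1 were most alike (r = 0.955) and TIPIN and PIF1 least (r = 0.322).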

How the data were processed

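Poly(A) RNA was sequenced from 12 samples of HCT116 TIM-mAID cells. The deposited table holds expected counts per gene, estimated by the authors with Salmon 1.10.1 after Trim Galore 0.6.7, cutadapt 3.4 and STAR 2.7.9a on GRCh38.p14, per the submitters' processing notes. Annotation release and strand setting: not given in the sources used here. Some values, 6.93%, were more than 0.01 from a whole number, and all were rounded. Groups and set numbers came from the sample titles. Libraries of a group differed by more than sampling noise.

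Counts were tested with edgeR 4.0.16 (R 4.3.3, limma 3.58.1) in a quasi-likelihood fit of all 12 libraries with 1 mean per group, TMM factors and filterByExpr (minimum count 10, minimum total 15), which kept 18049 genes. P-values were adjusted by Benjamini-Hochberg over all of them. The script was tested on simulated counts. Per-length levels used GENCODE v29 transcripts, and positions came from RefSeq. Alternatives were DESeq2 1.42.0, other size factors and filters, a replicate block, the mitochondrial share as covariate, fits of the compared groups only, each library left out, and, added after seeing the data, a fit of 8 libraries that drops from every group the one of highest mitochondrial share.

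Named genes were the 8 members, the 3 most similar genes to each, and from each related list up to 3 that passed the test with the smallest p in the combination against DMSO. ATR and the markers beyond these were chosen otherwise, as the inhibitor's target and for their levels. The members and lists were chosen with earlier results of these data known.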

Additional observations from a re-analysis of the deposited data

Results flagged for a closer look

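PIF1 is set apart by the change with the combination differing from the sum of the changes with 5-Ph-IAA and ATRi alone. The interaction was -2.58 ± 0.39 on the log2 scale, with an edgeR adjusted p of 0.0465, and all 3 combination libraries lay below the 9 others. It uses the same combination libraries from which PIF1 was known when the list was drawn, so it is not independent of that choice. Only 14 genes passed this test, among them the G2/M genes CDC25C (-2.20 ± 0.21), AURKB (-2.16 ± 0.32) and CENPA (-1.80 ± 0.23), named here after their values were seen. Leaving out 1 library at a time, the PIF1 interaction stayed between -2.82 and -2.28 and passed the test only without 5-Ph-IAA set 2 or ATRi set 2, with adjusted p from 0.0142 to 0.184.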

How the results depend on the processing

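No result changed sign while past the threshold under any alternative. Over 824 refits of the 56 member values, 762 gave the same call, 41 lost it and 21 gained it, and 36 differences that were not past the threshold changed sign. Genes past the threshold numbered 1 for 5-Ph-IAA against DMSO, 12 for ATRi against DMSO, 2370, 1699 and 634 for the combination against DMSO, 5-Ph-IAA and ATRi, 0 for ATRi against 5-Ph-IAA and 14 for the interaction. With DESeq2 the counts that moved by over 1.5 times became 18 (5-Ph-IAA), 102 (ATRi), 2557 (combination against 5-Ph-IAA), 1461 (combination against ATRi), 25 (ATRi against 5-Ph-IAA) and 212 (interaction). The cause was not tested. With the mitochondrial covariate they became, in the order first given, 6, 122, 6449, 5507, 3188, 5 and 278. Without a count filter they became 0 (5-Ph-IAA), 28 (ATRi), 1 (ATRi against 5-Ph-IAA) and 47 (interaction). With only the compared groups they became 0 (5-Ph-IAA), 0 (ATRi), 1033 (against 5-Ph-IAA) and 970 (against ATRi). With 8 libraries they became 0 (5-Ph-IAA), 1 (ATRi), 805 (combination against 5-Ph-IAA), 64 (combination against ATRi) and 0 (interaction). Fork genes past the threshold went from 4 to 2 against 5-Ph-IAA, from 2 to 1 against ATRi and from 1 to 0 in the interaction with 8 libraries, and from 1 to 0 there with a stricter filter of 1 CPM in 3 libraries, where PIF1 had an edgeR adjusted p of 0.0503.

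The set numbers gave a replicate block, but deviations of same-set libraries correlated above 0.1 in 13 of 18 pairs only (from -0.0936 to 0.756), and 8 of 12 libraries correlated best with their own set, so the numbers were not taken as pairs. With the replicate block the genes past the threshold were 100 for ATRi, 4569, 3546 and 1980 for the combination against DMSO, 5-Ph-IAA and ATRi, and 215 for the interaction. The fork genes were 7 against DMSO, where TIPIN alone did not pass, 6 against 5-Ph-IAA and 3 against ATRi. The block's added calls were WDHD1 and SMARCAL1 against DMSO and 5-Ph-IAA, HLTF against DMSO, and CLSPN against ATRi (-1.01, edgeR adjusted p = 0.0311).

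Leaving out 1 library, all tested genes past the threshold were 0 for 5-Ph-IAA, 3 to 11 for ATRi, 1236 to 2376, 777 to 1334 and 134 to 220 for the combination against DMSO, 5-Ph-IAA and ATRi, 0 to 1 for ATRi against 5-Ph-IAA and 2 to 15 for the interaction. These fits have fewer libraries. Fork genes were 2 to 6, 2 to 3 and 1 to 2 for the combination and 0 to 1 for the interaction. Against DMSO, TIMELESS and CLSPN lost their calls without DMSO set 1 (-1.15 and -1.58), DMSO set 3 (-0.90 and -1.38), or combination set 1 (-1.04 and -1.58), 2 (-1.25 and -1.62) or 3 (-1.255 and -1.77). WDHD1 (-2.08) and HLTF (-0.87) gained theirs without DMSO set 2. WDHD1 also gained calls against DMSO and 5-Ph-IAA without a count filter (-1.69 and -1.46), with DESeq2 (-1.66 and -1.43) and with the mitochondrial covariate (-0.94 and -0.92), and HLTF against DMSO with these and with the stricter filter (-0.71 to -0.48), while with 8 libraries both gained calls against DMSO (-1.98 and -0.78). Against 5-Ph-IAA, TIMELESS lost its call (-1.21 to -0.87) unless the library left out was 5-Ph-IAA set 1, and CLSPN (-1.88 to -1.53) unless it was 5-Ph-IAA set 2. Against ATRi, ZRANB3 kept its call without ATRi set 1 alone and lay between -1.20 and -0.93. PIF1 and ZRANB3 against DMSO and 5-Ph-IAA, and PIF1 against ATRi, passed in each of 14 refits. The calls of members against DMSO in this section are a description only. They come from the comparison known when the list was drawn, and nothing is read from them.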
